A study of Mus musculus with 8 samples.

Results

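The regions described here are stretches of acetylated chromatin that lie between genes, near a coding gene, and that carried a peak of histone H3 acetylated at lysine 27 (H3K27ac) in all 4 mouse breast tumors examined. On the autosomes, peak intervals of any tumor that shared or adjoined a base were merged into 1 interval, which gave 89238 union regions. A region was kept when every tumor had a peak in it, when it was under 8000 bp wide, when it overlapped no protein-coding gene and when its midpoint lay over 1 kb and up to 100 kb from the nearest protein-coding transcription start site (TSS). These conditions left 7622 regions, 8.54% of the union. They are called shared intergenic regions below. H3K27ac was the only mark measured, so the regions are candidates for enhancers and were not identified as such by another mark or by function.

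Chromatin immunoprecipitation sequencing (ChIP-seq) of H3K27ac had been done on 2 tumors of the genotype PyMT;Rag1KO (control) and on 2 of the genotype K14-TSLPtg;PyMT;Rag1KO (test), each from a separate mouse. All of the mice were Balb/c, lacked Rag1 and therefore their own T and B cells, and were given wild-type CD4+ T cells when they were 4 weeks old. Tissue was taken once tumors had reached terminal size. The polyoma middle T oncogene (PyMT) is driven by the mouse mammary tumor virus promoter in mammary epithelium. Test mice in addition expressed thymic stromal lymphopoietin (TSLP), an epithelial cytokine, in keratin 14 positive epithelium such as the epidermis, and their sample titles read cyst where those of the controls read tumor. The comparison asked whether chromatin activity differed between tumors of mice with and without the K14-TSLPtg transgene. The peak files used here give only the position and width of each peak, so the quantity compared is the number of base pairs of a region that lay under peaks in a tumor (covered length), and the read depth behind it is unknown.

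H3K27ac is written by the acetyltransferases p300 and CBP at active promoters and enhancers, and is removed when these are switched off. Enhancers are stretches of DNA bound by combinations of transcription factors that raise transcription from a promoter, often over long distances and past other genes. In mammary epithelium, enhancers of factors such as Elf5, Grhl2 and the AP-2 family help hold luminal identity, and dense groups of acetylated elements are often found near genes of cell identity. The nearest gene is a convention, because an enhancer may act on another one.

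To show what the regions look like in sequence, 300 bp at the center of the bases covered in all 4 tumors are printed for 7 of them. The genes were taken from the luminal, epithelial-mesenchymal transition (EMT) and immediate-early lists used below, and for each gene the region shown is the one with the longest stretch covered in all 4 tumors among those whose window held an AP-1 or GRHL motif, so these windows were chosen for their motifs. Coordinates are mm10, the plus strand is given 5′ to 3′, and the letters are those of the C57BL/6J reference genome, not of the Balb/c tumors. Capitals mark every match, on either strand, to 1 of 12 motifs searched, which are named after the sequences. The windows are chr2:103364862-103365161 (Elf5), chr15:37135503-37135802 (Grhl2), chr17:87609882-87610181 (Epcam), chr9:116270412-116270711 (Tgfbr2), chr8:25465590-25465889 (Fgfr1), chr12:85430427-85430726 (Fos) and chr15:62053426-62053725 (Myc), and all of them are intergenic.
Elf5 region at 47.4 kb upstream: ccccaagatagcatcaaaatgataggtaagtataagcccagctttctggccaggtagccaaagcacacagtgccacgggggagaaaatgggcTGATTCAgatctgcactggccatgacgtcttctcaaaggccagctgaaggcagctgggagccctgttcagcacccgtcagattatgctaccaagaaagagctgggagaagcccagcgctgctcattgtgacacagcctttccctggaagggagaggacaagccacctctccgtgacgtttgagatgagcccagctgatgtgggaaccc
Grhl2 region at 97.3 kb upstream: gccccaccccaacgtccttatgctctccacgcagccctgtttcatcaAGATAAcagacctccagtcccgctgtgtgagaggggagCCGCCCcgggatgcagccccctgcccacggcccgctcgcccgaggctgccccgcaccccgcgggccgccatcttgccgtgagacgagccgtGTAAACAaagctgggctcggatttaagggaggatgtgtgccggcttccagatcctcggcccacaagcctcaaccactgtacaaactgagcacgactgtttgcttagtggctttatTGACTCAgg
Epcam region at 26.1 kb upstream: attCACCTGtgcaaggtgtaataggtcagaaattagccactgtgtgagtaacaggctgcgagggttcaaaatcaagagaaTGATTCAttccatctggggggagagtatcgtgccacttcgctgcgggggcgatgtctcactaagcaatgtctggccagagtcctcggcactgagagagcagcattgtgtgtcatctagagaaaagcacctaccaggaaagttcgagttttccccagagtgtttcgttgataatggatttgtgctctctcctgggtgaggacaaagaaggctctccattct
Tgfbr2 region at 95 kb upstream: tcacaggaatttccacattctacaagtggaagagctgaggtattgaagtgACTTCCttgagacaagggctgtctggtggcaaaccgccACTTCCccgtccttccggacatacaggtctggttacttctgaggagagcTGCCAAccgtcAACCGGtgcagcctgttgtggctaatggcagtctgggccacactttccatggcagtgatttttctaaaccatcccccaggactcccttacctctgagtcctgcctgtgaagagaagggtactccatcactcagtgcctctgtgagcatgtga
Fgfr1 region at 47.7 kb upstream: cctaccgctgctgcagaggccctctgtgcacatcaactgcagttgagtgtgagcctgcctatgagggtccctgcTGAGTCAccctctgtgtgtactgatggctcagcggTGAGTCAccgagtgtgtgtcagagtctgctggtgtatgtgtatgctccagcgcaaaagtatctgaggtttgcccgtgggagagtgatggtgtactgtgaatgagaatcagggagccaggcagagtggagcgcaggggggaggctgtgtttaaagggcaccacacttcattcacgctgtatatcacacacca
Fos region at 43.2 kb upstream: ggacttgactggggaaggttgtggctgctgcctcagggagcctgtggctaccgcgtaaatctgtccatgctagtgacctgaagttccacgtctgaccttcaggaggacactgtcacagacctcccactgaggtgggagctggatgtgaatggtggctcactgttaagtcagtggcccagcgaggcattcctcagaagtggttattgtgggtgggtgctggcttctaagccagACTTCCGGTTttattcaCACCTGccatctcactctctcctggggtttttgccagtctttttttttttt
Myc region at 68.2 kb downstream: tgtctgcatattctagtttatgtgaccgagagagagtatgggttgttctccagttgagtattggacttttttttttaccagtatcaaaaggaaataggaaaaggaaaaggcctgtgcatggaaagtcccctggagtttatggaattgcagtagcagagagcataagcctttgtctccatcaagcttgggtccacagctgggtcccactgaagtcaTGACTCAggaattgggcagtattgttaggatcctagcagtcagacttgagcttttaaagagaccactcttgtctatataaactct

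The AP-1 motif was searched as TGANTCA, the TEAD motif as GGAATGT, the FOX motif as TGTTTAC, the RUNX motif as TGTGGTT, the motif of GATA factors as AGATAA and the STAT motif as TTCNNNGAA. The GRHL motif was searched as AACCGG, the CEBP motif as TTGCNNAA, the short NFI motif as TTGGCA, the ETS motif as GGAAGT, the SP/KLF motif as GGGCGG and the E-box of ZEB and SNAI factors as CACCTG. The windows at Elf5 and Myc each held 1 match, the AP-1 motif. The Fgfr1 window held 2 AP-1 motifs, at bases 75 to 81 and 110 to 116 counted from its first base. In the Epcam window an AP-1 motif at bases 81 to 87 followed an E-box at bases 4 to 9. The Grhl2 window held 4 matches, to GATA, SP/KLF, FOX and AP-1, and the Tgfbr2 window held 4, to ETS at 2 places, to the short NFI motif and to GRHL. In the Fos window an ETS motif at bases 233 to 238 overlapped a GRHL motif at bases 237 to 242, so these 2 matches share letters, and an E-box followed at bases 250 to 255. A match is a string of letters and was not tested for binding.

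Over all shared intergenic regions, these motifs were counted in the 300-bp window at the center of the bases covered in all 4 tumors, which 7369 regions had. The AP-1 motif, the target of Fos and Jun dimers, was in 12.6% of the windows. It was in 10.6% of windows of shared regions over coding genes, in 12.0% of those beyond 100 kb from any start and in 4.04% of those within 1 kb of a start, and it was in 7.94% of 27018 annotated RefSeq promoters (GRCm38.p6, 300 bp each). In 11337 flanking windows 5 kb outside the regions and free of peaks, the share was 9.09%. The GRHL motif, bound by the grainyhead-like factors that keep epithelial junctions, was in 5.03% of windows against 2.21% of flanks, and its share was 11.6% within 1 kb of a start. The ETS motif, which Elf5 and other ETS factors read, was in 24.6% of windows and 17.1% of flanks, and the short NFI motif was in 20.1% and 13.5%. SP/KLF motifs, typical of CpG-rich promoters, were in 10.4% of windows, 3.45% of flanks and 45.8% of windows within 1 kb of a start. In shared regions over coding genes the shares were 4.42% for GRHL, 22.8% for ETS, 19.3% for NFI and 10.3% for SP/KLF. Beyond 100 kb from any start they were 3.97%, 23.6%, 22.5% and 5.71% in the same order.

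The share was larger than in the flanks for 10 of the 12 motifs, and was smaller for the GATA motif (11% against 16.4%) and the RUNX motif (6.74% against 8.54%). Base composition differed between the sets as well. The windows had a median GC content of 48.7% and 5.41 CpG per window, against 45% and 2.99 in the flanks, 48.7% and 5.82 over coding genes, and 61.3% and 20.2 within 1 kb of a start. Repeats took 15.6% of the bases in the windows and 34.0% of those in the flanks. The part of base composition and repeats in the motif shares was not tested. Within the regions, AP-1 motifs numbered 2.39 per 100 regions in each 50-bp step within 100 bp of the center and 1.52 at 800 to 1000 bp from it. GRHL motifs went from 0.990 at the center to 0.414 at that distance, and the E-box stayed level at 4.07 and 4.22.

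**Figure D1:**
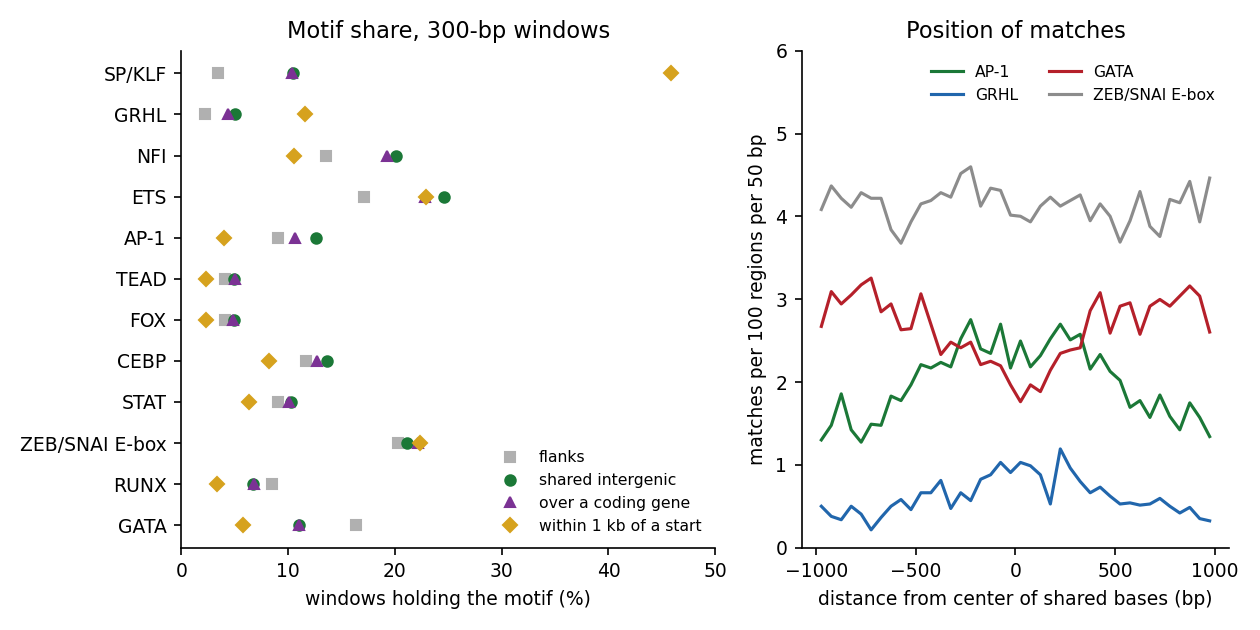
The left panel plots the percent of 300-bp windows that hold each motif, in flanks, in shared intergenic regions, in shared regions over coding genes and in those within 1 kb of a start, in order of the ratio of intergenic regions to flanks. The right panel plots matches per 100 shared intergenic regions in 50-bp steps by distance from the center of the shared bases, where AP-1 averages 2.39 within 100 bp of the center against 1.52 at 800 to 1000 bp, with single steps as high farther out, and GATA runs the other way at 1.97 against 2.95.

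The regions were selected on measured values, namely the presence of a peak in each of the 4 tumors and a width under 8000 bp, and both are given here as a description with no test. Of 22390 intergenic regions within the same distance and width limits, 8495 had a peak in 1 tumor, 3386 in 2, 2887 in 3 and 7622 in 4. Their median widths were 212, 409, 678 and 1538 bp in that order. A further 83 shared intergenic regions were at least 8000 bp wide and were left out. Just inside the width limit was a region of 7941 bp near Chd2 (7242, 6188, 7395 and 5951 bp covered in control 1, control 2, test 1 and test 2) and just outside it one of 8036 bp near C130026I21Rik (8036, 5776, 7865 and 5371 bp). At the far limit the regions were 99940 bp from Irf2bp2 (4408, 4319, 4372 and 3890 bp covered) and 100029 bp from Tgfb2 (1775, 765, 1393 and 2041 bp). At the near limit they were 1025 bp from Wdyhv1 (238, 571, 491 and 334 bp) and 994 bp from Osbpl2 (1536, 1764, 1707 and 1243 bp).

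As a check of the tissue, marker genes were read at their promoters. A peak within 1 kb of the start was present in all 4 tumors for 26 of 30 luminal epithelial genes, for 2 of 15 myoepithelial, 9 of 21 myeloid, 1 of 15 fibroblast and 1 of 10 adipocyte genes, and for 0 of 15 endothelial, 0 of 15 T cell, 0 of 10 neuronal and 0 of 10 hepatocyte genes. Luminal genes also had the most shared intergenic regions of these cell types, with 83 regions over 21 of the 30 genes. The 4 tumors had from 59762 to 69861 peak intervals that covered 64.3 to 73.1 Mb, with the fewest intervals in test 2 and the most in control 1. Since the tumors are mixtures of cells, fewer cells of a type and less acetylation per cell cannot be told apart.

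The distance to the nearest coding start had a median of 24364 bp, and the middle 50% of regions lay between 10528 and 48241 bp. Upstream of their nearest start lay 5691 regions (74.7%) and downstream of it 1931, a split that the exclusion of gene bodies shapes, because the downstream side of a start is its gene. No region midpoint lay within 1 kb of the start of any other annotated transcript of a coding gene (0 regions). Width changed little with distance, from a median of 1447 bp at 1 to 5 kb to 1618 bp at 50 to 100 kb.

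**Figure D2:**
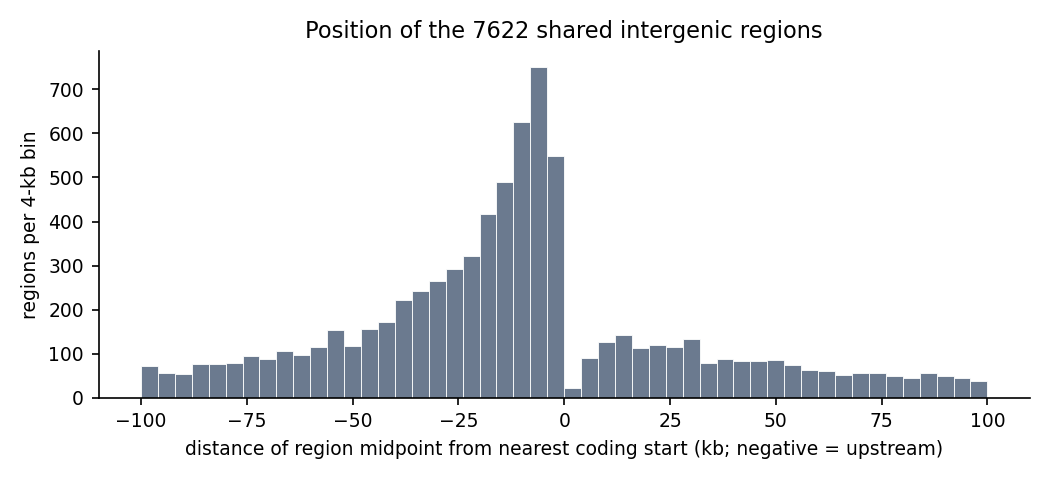
The histogram counts shared intergenic regions in 4-kb bins by the distance of their midpoint from the nearest protein-coding start in kb, with upstream negative. Upstream bins hold 74.7% of the regions and are fullest within 10 kb, and the first bin downstream is nearly empty because gene bodies were excluded.

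The regions were shared out over 3885 nearest genes, of which 2220 had 1 region and 297 had 5 or more. The promoter of the nearest gene carried a peak in all 4 tumors for 73.0% of the regions. The same share was 74.5% for shared regions over coding genes, 66.2% for those beyond 100 kb, each counted per region. Counted per gene, it was 68.4% of the 3885 genes with a region and 50.9% of all 20807 autosomal coding genes. When neighbors within 12.5 kb were grouped, 4399 regions (57.7%) fell in groups of 2 or more, and 157 groups had at least 5. The group with most regions held 18 within 96.4 kb of chromosome 17, nearest to Ddr1, a collagen receptor kinase, and Ier3, an immediate-early gene. It covered 31266, 29874, 26644 and 27341 bp in control 1, control 2, test 1 and test 2, so both test tumors were below both control tumors. A group of 14 next to Ptma, the gene of prothymosin alpha, covered 32650, 31124, 33789 and 30692 bp, where the groups overlapped.

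The covered length was compared between the genotypes next. The median region was covered over 1192 bp in control 1, 1075 bp in control 2, 1170 bp in test 1 and 1072 bp in test 2. The higher and the lower tumor of each genotype were thus nearly alike, and the groups overlapped. Control tumors averaged 1134 ± 82.7 bp (SD, n = 2) and test tumors 1121 ± 69.3 bp (SD, n = 2), a ratio of 0.989 that ranged from 0.899 to 1.09 over the 4 possible test-to-control ratios of single tumors (exact permutation test, two-sided, p = 0.667, where 2 tumors per group cannot give less than 0.333). The ratio crossed 1 in 4 of the alternatives tried, so no direction is read from it, and tumors this few cannot show that there is no difference.

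Compared with other shared regions of the same tumors, shared intergenic regions were narrower than those over coding genes in 4 of 4 tumors, with a mean difference in the median of -180 ± 45.7 bp (SD, n = 4), and narrower than those within 1 kb of a start in 4 of 4 tumors, by -263 ± 86.5 bp (SD, n = 4). The exact permutation p was 0.125 in both cases, two-sided, which is the smallest that 4 tumors allow. The rule shapes these differences. A region that touches a gene body counts as over a gene, so wide regions can leave the intergenic set more readily. Every class was also cut at a width of 8000 bp, which bounds covered length. The differences between classes are therefore a description, and the p-values decide nothing about them. Against shared regions beyond 100 kb the difference was -26.0 ± 80.1 bp (SD, n = 4; exact permutation p = 0.625) and 2 of 4 tumors were lower.

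**Figure D3:**
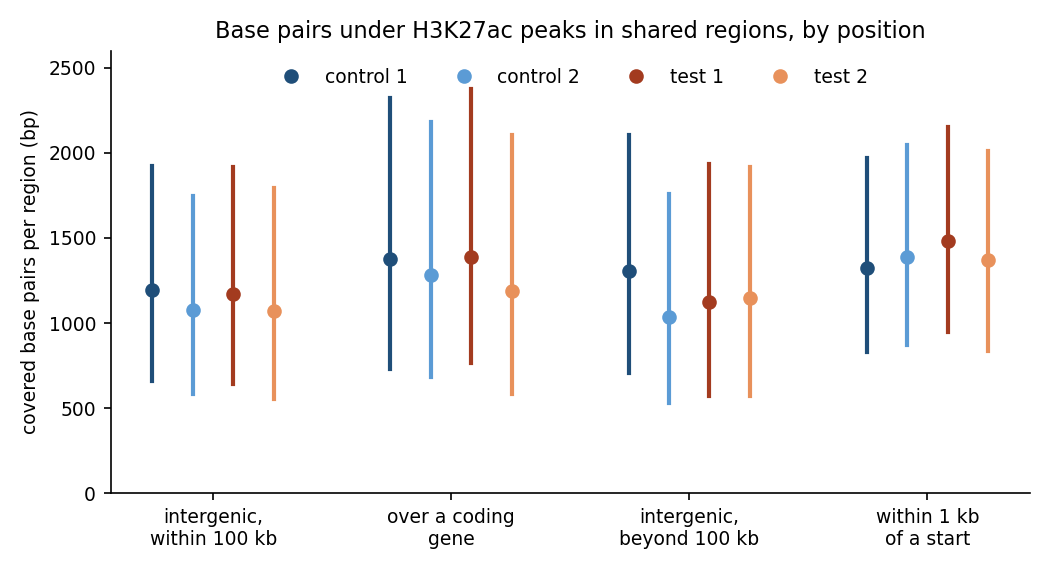
Points show the median covered base pairs per shared region in each tumor and bars the middle 50% of regions, for 4 classes of position. Shared intergenic regions within 100 kb have medians of 1072 to 1192 bp, below those over coding genes in every tumor, and control and test tumors interleave.

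Single regions varied more than the medians. The tumor with the most coverage of a region had 1.75 times that of the tumor with the least in the median region, and over 2 times in 3081 regions (40.4%). The ratio was 2.04 for regions under 1000 bp and 1.37 for those of 4000 to 8000 bp. Test 2 was the narrowest tumor in 35.0% of regions, control 2 in 29.6%, control 1 in 17.7% and test 1 in 17.5%. Across the 7622 regions, log2 covered length correlated between tumors at Pearson's r of 0.695 to 0.843, where pairs with test 2 gave the 3 lowest values, and control 1 with test 1 the highest. Regions are not independent and share the tumor's depth, so these values are a description. In 251 regions the peaks of the 4 tumors did not share a base.

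No region was called between the genotypes. limma on log2 covered length over all 34078 autosomal shared regions, with Benjamini-Hochberg adjustment, called 0 shared intergenic regions higher in test tumors and 0 higher in control tumors, where 0% of all shared regions were called in either direction, and the smallest adjusted p among the shared intergenic regions was 0.973. At an unadjusted p under 0.05 there were 172 with more coverage in test tumors and 181 with more in control tumors, 4.63% together. The background over all shared regions was 2.3% and 2.11%, 4.40% together. In 1291 regions (16.9%) both test tumors covered more than both control tumors, where 19.1% of all shared regions did so. In 1121 (14.7%) both covered less, where the background was 13.3%. With each tumor divided by its median over all shared regions, the counts were 1247 and 1226, beside 17.6% and 14.8% in the background. These shares are near the background in both directions. The 0 limma calls do not show that the regions are alike, because 2 tumors per group leave little power. The region near Trps1 described below, with a limma log2 difference of 3.66, still had a limma adjusted p of 0.973.

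Regions near luminal genes were numerous and balanced between the genotypes. The 83 regions of this list were covered over a median of 1615 and 1523 bp in the control tumors and 1536 and 1327 bp in the test tumors. Both test tumors were above both controls in 11 of them (13.3%) and below in 9 (10.8%), beside 19.1% and 13.3% over all shared regions, and the median log2 ratio was 0.01. Grhl2 had 10 regions from 10.8 to 97.3 kb upstream, with summed lengths of 18565, 18148, 21960 and 17887 bp in control 1, control 2, test 1 and test 2. Test 1 stood above the other tumors, and the groups overlapped, although they separated with test tumors above after division by each tumor's median. Epcam, an adhesion molecule of epithelia, had 9 regions with 17708, 14863, 16426 and 16762 bp.

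Tfap2c, which encodes the luminal factor AP-2γ, had 10 regions downstream of its start, with 22007, 22926, 20891 and 19125 bp. Both test tumors were below both controls in the sum and in 5 of the 10 regions (beside 13.3% of all shared regions), of which those at 37.8 and 64.9 kb overlapped after division by each tumor's median. The region that differed most among them, 30.5 kb from the start, was covered over 2182, 2646, 1757 and 276 bp, and the low value came from test 2. The widest, at 37.8 kb, was covered over 7348, 7501, 7321 and 7286 bp, among the 5 most covered regions of all, and was nearly the same in each tumor.

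Elf5, the ETS factor of the alveolar luminal lineage, had 6 regions between 21.5 and 47.4 kb upstream and a promoter peak at its annotated start in 2 of 4 tumors. Their summed lengths were 17791, 12738, 19011 and 10949 bp, so 1 tumor of each genotype was high and 1 low, and 0 of the 6 regions separated the groups as deposited. The widest of them overlapped the start of the long noncoding RNA BC016548 and was covered over 5883, 5119, 6936 and 5425 bp.

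Among genes of milk and alveolar differentiation, 18 of 33 had 60 regions, with 9 above (15%) and 5 below (8.33%) in test tumors, beside 19.1% and 13.3% over all shared regions, and a median log2 ratio of 0.07. Id2, a helix-loop-helix inhibitor needed for alveolar growth, had 8 regions with 22482, 20030, 24249 and 20921 bp. Spp1, the gene of osteopontin, had 6 with 17990, 14691, 17784 and 16664 bp. Scd1, a fatty acid desaturase, had 6 with 14323, 12392, 14889 and 11142 bp. In all of these the groups overlapped as deposited, and those of Id2 separated with test tumors above after division by each tumor's median.

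Of 13 genes that the study discussed, 8 had no shared intergenic region: Lalba, Igf2, Muc1, Cdh1, Vim, Csf2rb, Il4ra and Gata3. For 7 of these 8 the promoter had a peak in all 4 tumors, and for Igf2 in 0. Csn2, the gene of beta-casein, had 1 region, 26.2 kb upstream, covered over 869, 302, 1046 and 1344 bp, where both test tumors were above both controls and the log2 ratio of the means was 1.03 (0.46 to 1.98 when 1 tumor was left out, highest without control 1). Ltf, the gene of lactoferrin, had 2 regions with summed lengths of 4546, 4140, 4432 and 4525 bp. Cdkn1a, the gene of the cell cycle inhibitor p21, had 4 with 5636, 7208, 5671 and 6913 bp. Srgn, the gene of serglycin, had 1 with 778, 618, 590 and 718 bp. In the last 3 genes the groups overlapped. The promoters of Csn2 and Srgn had a peak in 0 tumors, and those of Ltf and Cdkn1a in all 4.

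Regions near EMT genes numbered 39, over 14 of 50 genes, with 4 above (10.3%) and 8 below (20.5%) in test tumors, beside 19.1% and 13.3% over all shared regions, and a median log2 ratio of -0.06. Fgfr1, a receptor of fibroblast growth factors, had 4 regions from 47.7 to 73.9 kb upstream. Their summed lengths were 10496, 11816, 8637 and 6160 bp, a test over control ratio of 0.663, and both test tumors were below both controls in the sum and in 3 of the 4 regions (beside 13.3% of all shared regions). The 2 AP-1 motifs printed above lie in the region at 47.7 kb, which was covered over 1184, 2119, 1162 and 987 bp. Leaving out 1 tumor at a time kept the log2 ratio of the sum between -0.86 and -0.37, lowest without test 1 and highest without test 2.

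Tgfbr2, a receptor of transforming growth factor beta, had 10 regions upstream with 16848, 15609, 16837 and 16770 bp, and the groups overlapped. Its regions were not all in the same order. At 95.0 kb, the region printed above was covered over 1998, 1853, 2699 and 2129 bp, with both test tumors above both controls. At 38.3 kb the order was the reverse, with 2916, 2761, 2160 and 2142 bp. Tpm1, a tropomyosin, had 5 regions with 11585, 10139, 10842 and 9185 bp, and Cd44, a hyaluronan receptor, had 4 with 4205, 4243, 2723 and 5804 bp. Both overlapped as deposited, and the sums of Tpm1 separated with control tumors above after division by each tumor's median.

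Regions near immediate-early genes, which respond to growth signals within minutes, separated the groups more often with control tumors above. The list had 47 regions over 10 of 14 genes, 15 with both controls above both test tumors and 3 the other way, with a median log2 ratio of -0.07. These are 31.9% and 6.38% of the list, beside 13.3% and 19.1% over all shared regions. After division by each tumor's median the counts were 13 and 1, where the background was 14.8% and 17.6%. The list was set up with earlier results of these data known, and its regions share genes.

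Myc, the growth-promoting transcription factor, had 8 regions, 1 of them upstream and 7 from 55.9 to 94.3 kb downstream, the nearest of these over the start of the long noncoding RNA Pvt1. Their summed lengths were 15545, 14425, 11909 and 10508 bp, a test over control ratio of 0.748, and 6 of the 8 regions had both controls above both test tumors (beside 13.3% of all shared regions), of which the one at 94.3 kb overlapped after division by each tumor's median. The widest, the one over Pvt1, was covered over 6892, 6447, 5118 and 4314 bp. The region at 82.8 kb was covered over 1351, 1339, 729 and 397 bp, with a log2 ratio of -1.26. The region with the AP-1 motif printed above, at 68.2 kb, was covered over 1171, 1148, 1087 and 1054 bp, a small difference in the same order. Leaving out 1 tumor at a time kept the log2 ratio of the sum between -0.51 and -0.33.

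Fos, a subunit of AP-1, had 8 regions with 23264, 21735, 22090 and 17942 bp, and test 2 was the lowest. The groups overlapped as deposited and separated with control tumors above after division by each tumor's median. The region with the ETS and GRHL motifs, at 43.2 kb, was covered over 2019, 2054, 1843 and 1798 bp. Ier3 had 8 regions with 17671, 16461, 14484 and 17132 bp, and Atf3, a stress-response factor of the AP-1 superfamily, had 6 with 6292, 8908, 7206 and 8918 bp.

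**Figure D4:**
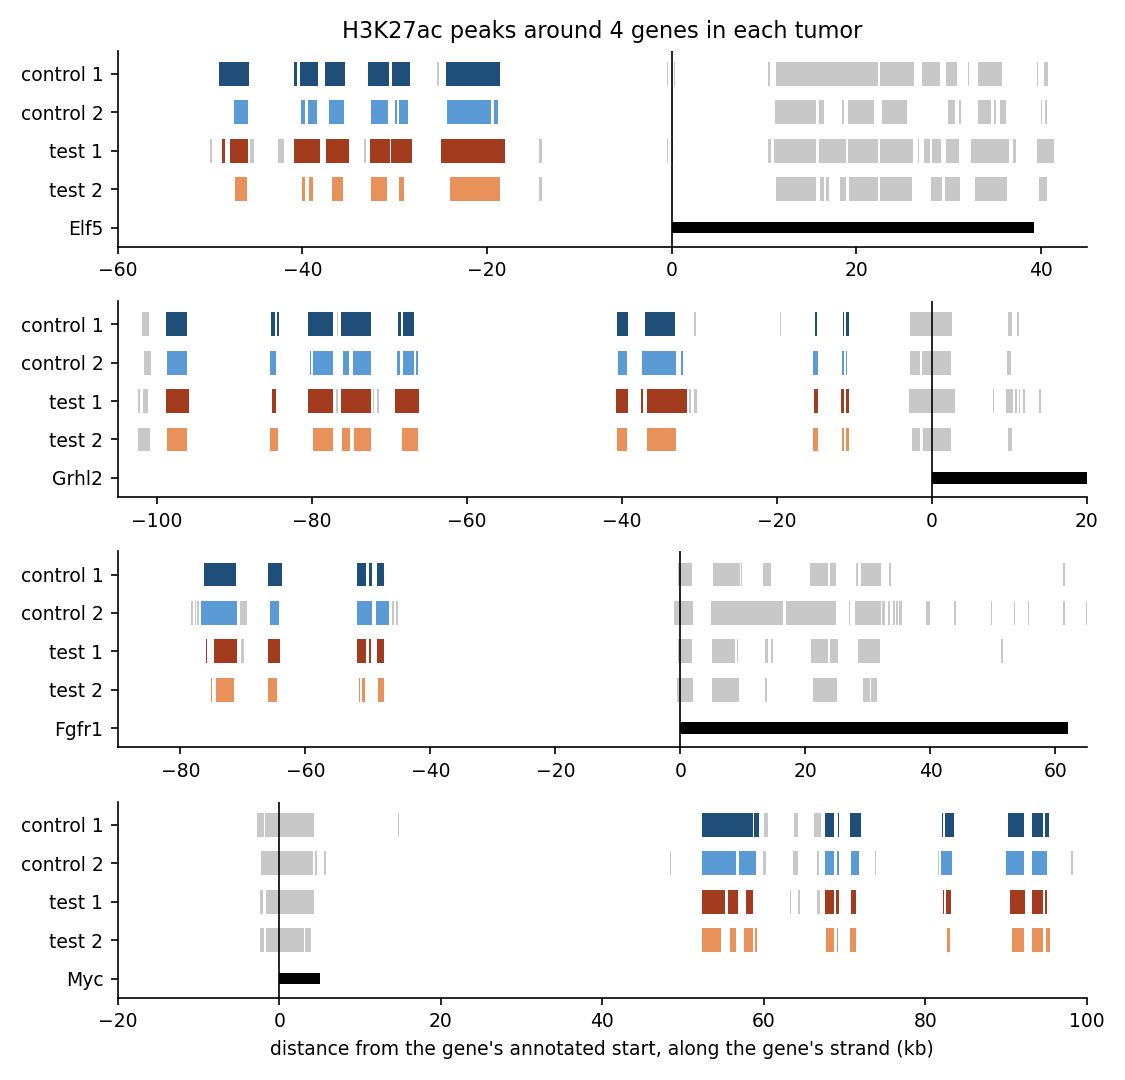
Horizontal bars are H3K27ac peaks in each tumor by distance in kb from the annotated start of Elf5, Grhl2, Fgfr1 and Myc, in color where they lie in a shared intergenic region of that gene and in gray elsewhere, and black bars show the genes. Peaks upstream of Elf5 are shorter in control 2 and test 2, those around Grhl2 cover most in test 1, and those of Fgfr1 and Myc cover less in sum in both test tumors.

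Myoepithelial genes had few regions, 12 over 7 of 15 genes, with 1 above (8.33%) and 4 below (33.3%) in test tumors, beside 19.1% and 13.3% over all shared regions. Their median log2 ratio was -0.18, and it was 0.24 over the regions within 50 kb of a start. Trp63, the factor of basal epithelium p63, had 2 upstream, with summed lengths of 5623, 4795, 3686 and 2253 bp and a ratio of 0.570. The region at 67.8 kb was covered over 1339, 1236, 255 and 161 bp, with a log2 ratio of -2.63. Acta2, smooth muscle actin, had 2 with 1341, 1610, 1482 and 709 bp, and Itga6, an integrin, had 4 with 4725, 4456, 4663 and 4052 bp. Both overlapped as deposited, and the sums of Itga6 separated with control tumors above after division by each tumor's median. Leaving out 1 tumor at a time kept the log2 ratio of Trp63 between -1.21 and -0.50.

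Lists of other cell types had from 1 to 9 regions. At these sizes 1 region is over 10% of a list, so the counts are given beside the 19.1% above and 13.3% below over all shared regions and nothing is read from them. The myeloid list had 9 over 5 of 21 genes, 3 above (33.3%) and 1 below (11.1%) in test tumors. T cell genes had 7 over 4 of 15, 1 above (14.3%) and 3 below (42.9%), with medians of 700, 781, 719 and 876 bp, and the genes differed in direction. Cd3e, a subunit of the T cell receptor complex, was covered over 690, 654, 719 and 993 bp in its 1 region, with both test tumors above both controls. Cd2, an adhesion molecule of T cells, was covered over 2228, 1718, 1490 and 1225 bp in its 2 regions, and Cd28, a costimulatory receptor, over 5241, 5519, 4918 and 4935 bp in 2, with both test tumors below in each, although those of Cd28 overlapped after division by each tumor's median. Cd5, a T cell surface glycoprotein, was covered over 1445, 1342, 1379 and 1052 bp in 2, where the groups overlapped as deposited and separated with control tumors above after that division. Endothelial genes had 6, adipocyte genes 4 (3 of them of Cebpa, which the myeloid list also holds), hepatocyte genes 3, neuronal genes 2 and fibroblast genes 1. Cytokine receptor and signaling genes had 11 over 6 of 16, 3 above (27.3%) and 2 below (18.2%). Among them Osmr, the oncostatin M receptor, had 2 regions with 2184, 2228, 3145 and 2459 bp, where both test tumors were above both controls, and Stat3 had 2 with 2373, 2468, 2329 and 2460 bp.

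The genes with most regions were Bcl2l14 with 14, Tob1 with 13, Sik1, Trib1 and Zfp217 with 12 each, Irf2bp2, Cpeb4, Zcchc2 and Pdia4 with 11 each, and Slc45a1 with 10. The promoters of Bcl2l14 and Slc45a1 had a peak in 0 tumors, and those of the others in all 4. Bcl2l14, of the Bcl-2 family of apoptosis regulators, had summed lengths of 31027, 22750, 32832 and 32390 bp, with control 2 far below the rest, and 8 of its regions had both test tumors above both controls and 0 the reverse, where 19.1% and 13.3% of all shared regions did so, here and for the next genes. Without control 2 the log2 ratio of its sum was 0.07, and with the other tumors left out it reached 0.52. Cpeb4, an RNA-binding protein of cytoplasmic polyadenylation, had 12826, 13168, 14741 and 17577 bp, with 5 above and 0 below in test tumors. Irf2bp2, a corepressor, had 23966, 25019, 22473 and 22184 bp, with 1 above and 5 below, and its sums overlapped after division by each tumor's median. Zfp217, a zinc finger repressor, had 17839, 19310, 17546 and 14224 bp, with 1 above and 2 below. Its sums separated with control tumors above, as deposited and after division by each tumor's median. Tob1, an antiproliferative protein, had 27522, 28345, 27322 and 31719 bp, and Trib1, a pseudokinase, had 23008, 19036, 20831 and 21663 bp, and in both the groups overlapped.

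**Figure D5:**
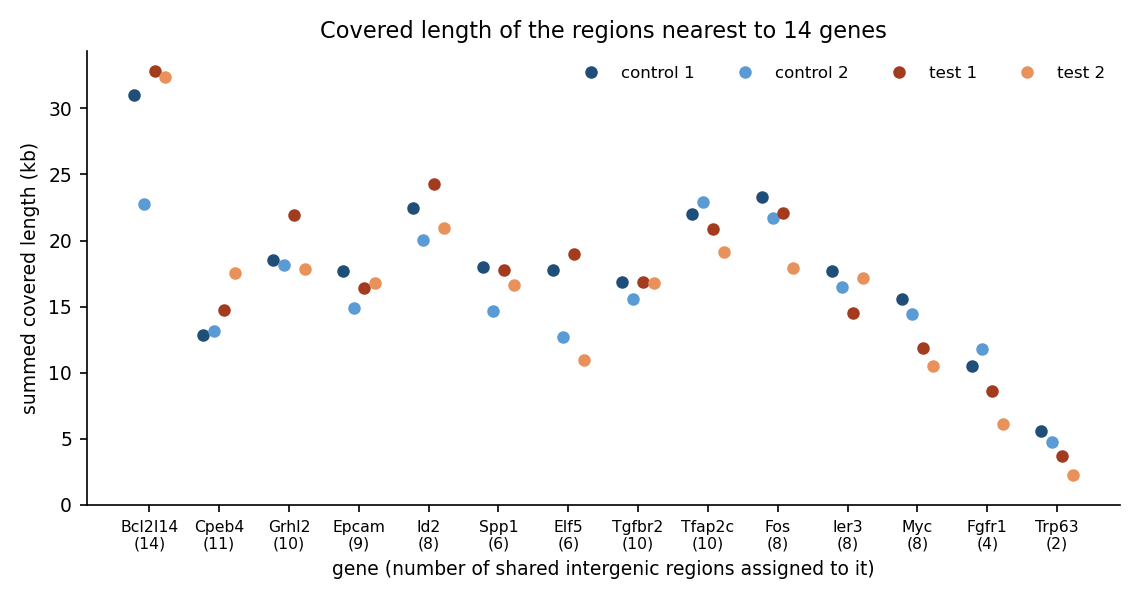
Points show the summed covered length in kb of the shared intergenic regions nearest to each of 14 genes, 1 point per tumor, with the number of regions in parentheses. Both test tumors lie below both controls for Tfap2c, Myc, Fgfr1 and Trp63 and above them for Bcl2l14 and Cpeb4, and the groups overlap for the other 8 genes.

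Among regions with a mean covered length of at least 1000 bp whose groups did not overlap, the largest difference was 81.7 kb upstream of Trps1, a GATA-type repressor of the mammary luminal lineage. This region was covered over 570 and 220 bp in the control tumors and 5567 and 3594 bp in the test tumors, a log2 ratio of 3.54 (4.38 without control 1 and 3.01 without control 2), and no base of it was covered in all 4. The other 4 regions of Trps1 overlapped between the groups. The next were near Sectm1a (826, 514, 1569 and 3486 bp, log2 1.92), Tm4sf1, a membrane protein related to tetraspanins (701, 209, 927 and 2198 bp, log2 1.78), Slc6a19, a transporter of neutral amino acids (1682, 857, 3228 and 5223 bp, log2 1.73), and Clec2e, a C-type lectin (664, 411, 1362 and 2082 bp, log2 1.68). In the other direction were regions near Zfp957 (1983, 1943, 271 and 610 bp, log2 -2.16), 9430038I01Rik (2422, 1304, 312 and 638 bp, log2 -1.97), Tns4, a tensin of focal adhesions (2515, 1928, 775 and 416 bp, log2 -1.90), Atp2b1, a calcium pump (2076, 1268, 460 and 443 bp, log2 -1.89), and Ankdd1a (1750, 1701, 593 and 367 bp, log2 -1.85). With 1 tumor left out, the log2 ratios of these 9 regions ranged from 1.03 to 2.90 where test tumors were above and from -2.86 to -1.46 where control tumors were above. All 10 were chosen for their size, and the limma adjusted p was 0.973 for each.

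Motifs were also read by the order of the groups. The AP-1 motif was in 13.7% of the 1073 windows with control tumors above, in 12.9% of the 5042 whose groups overlapped and in 10.7% of the 1254 with test tumors above. The GRHL motif was in 4.66%, 5.10% and 5.10% and the GATA motif in 11.2%, 10.9% and 11.2%. The regions are not replicates, and no test was made.

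Noncoding genes lay over part of the regions. A long noncoding RNA gene overlapped 1432 regions (18.8%), and the start of one lay in 397 (5.21%). Regions with such a start were wider in every tumor, with medians of 1551 to 1663 bp against 1053 to 1174 bp for the rest. The sorting itself favors this, because a wider region is more likely to hold any given point. The one near Xbp1, a transcription factor of secretory cells, over the start of Gm11963, was covered over 6712, 6626, 6735 and 6656 bp and was nearly the same in the 4 tumors.

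MicroRNA genes, 35 of them, lay in 29 regions, and 20 had a mature sequence in the RefSeq table (GRCm38.p6). Mature sequences of 3 are shown because their regions were the most covered (let-7i), among the 10 most covered (miR-674) or differed between the groups (miR-142a, chosen after its values were seen). Capitals mark the seed, bases 2 to 8, which pairs with target RNAs. The 6 strands have 6 different seeds.
mmu-let-7i-5p: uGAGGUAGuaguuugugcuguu
mmu-let-7i-3p: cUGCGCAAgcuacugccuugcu
mmu-miR-674-5p: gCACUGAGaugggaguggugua
mmu-miR-674-3p: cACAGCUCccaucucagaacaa
mmu-miR-142a-5p: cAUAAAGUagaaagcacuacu
mmu-miR-142a-3p: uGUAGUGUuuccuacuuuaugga

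The region over Mirlet7i, on chromosome 10 and 90.6 kb from Mon2, was covered over 4080, 5366, 5497 and 5417 bp, with control 1 the lowest and the other 3 tumors alike. Both test tumors were slightly above both controls, and the groups overlapped after division by each tumor's median. let-7i belongs to the let-7 family, which restrains growth and accompanies differentiation. The region over Mir674 was covered over 1931, 1955, 2467 and 1804 bp, and the groups overlapped. The region over Mir142, a microRNA of blood cells, was covered over 1525 and 1001 bp in control tumors and 446 and 209 bp in test tumors, a log2 ratio of -1.95 (-2.60 to -1.502 with 1 tumor left out). It lies 4.19 kb upstream of Tspoap1, whose promoter had a peak in 0 of the tumors. T cell and myeloid markers are given above, and their part in this difference was not tested.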

How the data were processed

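H3K27ac ChIP-seq peak lists of 4 tumors were analysed, 2 control and 2 test. Per the labels and the study's methods, the authors aligned reads with BWA to mm10, extended them, and called peaks in each tumor against its input with MACS2 at a q-value threshold of 0.01. The deposited lists give start and end positions of cleaned and merged peaks in base pairs, with no count, signal, score or p-value, so depth is unknown and a wider peak can reflect deeper sequencing. The input libraries have no file here and were not analysed. Read counts were not used here, hence no interval for counting error is given.

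Peaks were joined with Python 3.11.15 and GENCODE M21 (the same assembly as mm10), the start being the 5′ end of a gene. A region was present with an overlap of at least 1 bp. Covered length was compared with limma 3.58.1 in R 4.3.3 (log2, no pseudocount, moderated with a mean-variance trend) after a run on simulated data, and by exact permutation over tumors. Tumors are numbered in accession order and the number only names a tumor. Genes named are the 10 with most regions, the 4 with most regions of each of 13 lists, the 5 regions of largest change in each direction, the 5 most covered, those over noncoding genes and genes the study discussed, and others are marked. Members, lists and tests were chosen with earlier results of these data known. Alternatives are given at the end. Figures used matplotlib 3.10.9.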

Additional observations from a re-analysis of the deposited data

How the results depend on the processing

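limma called 0 shared intergenic regions in every alternative run with all 4 tumors, which 2 tumors per group cannot turn into evidence of no difference. It also called 0 with 1 tumor left out, but there 1 group is a lone tumor that is assumed to vary like the other 2, so these runs say nothing of stability. Their smallest adjusted p ranged from 0.175 without test 1 to 1.00, and without test 1 there were 316 regions with more coverage in test tumors and 802 with more in controls at an unadjusted p under 0.05, 14.7% together beside 14.4% of all shared regions. With peaks of at least 500 bp, 4425 regions remained under the rule, and 767 and 580 of them (17.3% and 13.1%) did not overlap with test and control tumors above, beside 20% and 12% of all shared regions. The ratio of the median lengths crossed 1, to 1.00 with peaks of at least 500 bp and to 1.00 where each tumor had to cover 25% of the region (exact permutation p = 1 in both), and it ranged from 0.940 to 1.04 when 1 tumor was left out, above 1 at 1.04 without control 1 and 1.03 without test 2. With 1 tumor left out and the same 7622 regions kept, non-overlapping regions numbered 2101 to 2905 with test tumors above and 1929 to 3044 with control tumors above, since fewer tumors have to be in order, and the background rose to 32% to 43.1% and 23.8% to 39.9%. With only the regions up to 50 kb from a start and the near limit unchanged, the median log2 ratio of the myoepithelial list was 0.24 and that of the endothelial list -0.078.

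Alternatives chosen after seeing the data left out 1 tumor for each list, gene and named region. The median log2 ratio then ranged from -0.048 to 0.065 for luminal, -0.034 to 0.21 for milk and alveolar, -0.36 to 0.027 for myoepithelial, -0.17 to 0.037 for EMT, -0.17 to 0.12 for myeloid, -0.25 to -0.063 for endothelial, -0.31 to -0.11 for T cell, -0.18 to -0.047 for immediate-early and 0.021 to 0.10 for cytokine receptor genes. The cause was not tested. The shares of 10 of 12 motifs stayed above those of the flanks in windows of 150 and 600 bp. No paired analysis was possible because the replicate numbers only name tumors in accession order. Covered length depends on read depth, which is unknown.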
